A study of Homo sapiens with 8 samples.

Results

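NAT10 knockout in HOS cells was described here from a single pair of libraries, 1 from the HOS control labelled NC and 1 from HOS cells labelled sgNAT10, 2 of the 8 samples of the series. Both were acRIP libraries: polyA RNA was fragmented, and what an anti-ac4C antibody pulled down was sequenced. HOS is an established human osteosarcoma line of mesenchymal character, and sgNAT10 names a guide RNA against NAT10. Whether the sgNAT10 cells were a clone or a pool was not given. The measurements were counts of reads over 31395 peak intervals of the genome build GRCh38. A peak was given to a gene when it overlapped the span of exactly 1 protein-coding gene, which held for 15318 peaks and 6762 genes. The value of a gene is the sum of its peaks. Of these genes, 2765 had a mean count of 100 or more over the 2 HOS libraries and are called measured below, and the other 3997 are not described. The column names of the count table gave the cell line and genotype but not the assay, and the columns were taken as acRIP because the table was named as RIP counts.

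N4-acetylcytidine, or ac4C, is a cytidine that carries an acetyl group on its base. NAT10 is the acetyltransferase that writes it, in the RNA of the small ribosomal subunit and in some tRNAs, and ac4C in mRNA has been linked to the stability and translation of the message. NAT10 resides mainly in the nucleolus, where ribosomes are assembled, and its level in tumours has been studied for links to growth.

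Each difference below is called a shift, the log2 of the normalised count (CPM, counts scaled to a common library size) in sgNAT10 minus that in NC after a prior count of 1. With 1 library a side there is no test and no spread between replicates, so a gene is called higher or lower when it differed at least 2-fold, and intervals give 95% bounds for counting error only. Reads carry no molecular identifiers and are not independent molecules, so the true error is wider. Inputs were not analysed here, so a shift in RNA level and a shift in recovery by the antibody cannot be told apart. In bulk samples, fewer cells of a type and less RNA per cell cannot be told apart either. The labels name no spike-in, so a loss of ac4C from all RNA alike would not be visible.

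Totals over all peaks were 24785306 counts in NC and 21132328 in sgNAT10, which cover peaks and are not the sequencing depth. A block of 65 peaks on chromosome 21, at the rRNA repeats between 8200000 and 8500000, held 62.4% of the NC counts and 43.8% of the sgNAT10 counts, and protein-coding genes held 10.4% and 15.6%. The median count per peak was 14 in NC and 27 in sgNAT10, and 3007 peaks had no count in NC against 844 in sgNAT10. With the scaling used (TMM), the median shift of the 2765 measured genes was -0.23, with quartiles of -0.78 and 0.42. With the library totals alone every shift is 0.58 higher and that median is 0.35, and with TMM factors from the 2 HOS libraries alone it is -0.50. For the lists with the lowest medians the difference from the median of all measured genes is therefore also given, which another scaling leaves nearly the same.

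NAT10 itself was lower in the library labelled sgNAT10. Its only peak (151 bp, chr11:34146656-34146807, GRCh38) lay at the 3′ end of the gene (Gene ID 55226). It had 180 counts in NC and 63 in sgNAT10, or 9.97 CPM (8.57 to 11.5) and 2.73 CPM (2.10 to 3.50). The shift was -1.85 (-2.30 to -1.44), and it was -1.27 with library totals alone. The site of the guide RNA was not given, so whether this peak lies in the edited sequence is not known. In the osteosarcoma line 143B, which was derived from HOS, the same peak went the other way, with 65 NC counts and 130 sgNAT10 counts, a shift of 0.50. The 143B library labelled sgNAT10 was thus not lower at NAT10. Counts over this peak do not show whether NAT10 was edited in either line, so they do not settle the labels. Values of 143B are given below as those of the labelled libraries.

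Markers of the cell type were led by mesenchymal genes. Of 20 mesenchymal and osteosarcoma markers, 10 had a peak and summed to 1621 CPM in NC and 1705 CPM in sgNAT10. Most of this came from VIM, an intermediate filament protein (16614 and 21284 counts), and from the transcription factor TWIST2 (9948 and 15233 counts). Of the 6 measured mesenchymal markers 4 lay above 0, and 2 were at least 2-fold lower, SPARC (1231 and 431, -1.86) and CDH2 (290 and 154, -1.26). ALPL (6 and 6 counts) and SP7 (7 and 12) were nearly empty. The collagen genes COL1A1 and COL1A2, the matrix gene FN1, and SPP1, IBSP and BGLAP had no assigned peak. Of 12 epithelial markers 4 had a peak, with sums of 122 CPM and 110 CPM. The epithelial markers differed in direction too: the keratins KRT18 (1511 and 1220 counts) and KRT8 (675 and 460) had shifts of -0.66 and -0.90, whereas the cadherin CDH1 had 5 and 812 counts (6.78). Of 10 immune markers 4 had a peak (57.4 CPM and 113 CPM, mostly CD68, while PTPRC had 2 and 5 counts), and none of 5 erythroid markers had one. Endothelial markers summed to 3.05 CPM and 39.7 CPM. In sgNAT10 nearly all of this came from the receptor gene KDR (18 and 855 counts), while VWF had the most counts in NC (29 and 51). The endothelial genes PECAM1 and CDH5 had no peak. The 7 neural markers, of which 6 had a peak, summed to 63.9 CPM and 54.0 CPM. The part of these markers in the results below was not tested.

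Among the 2765 measured genes, more were lower than higher in sgNAT10. At least 2-fold lower were 473 genes (17.1%) and at least 2-fold higher were 322 (11.6%), and 1657 genes had shifts below 0. At 4-fold, the order turned: 24 genes were lower and 87 were higher. With library totals alone the order also turned at 2-fold, with 112 lower and 688 higher. A gene near the count limit could enter through the library in which it was high: 135 of the 322 higher genes had under 100 counts in NC, and 86 of the 473 lower genes had under 100 in sgNAT10. Of the 2382 genes with 100 or more counts in both libraries, 387 were lower and 187 higher.

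**Figure D1:**
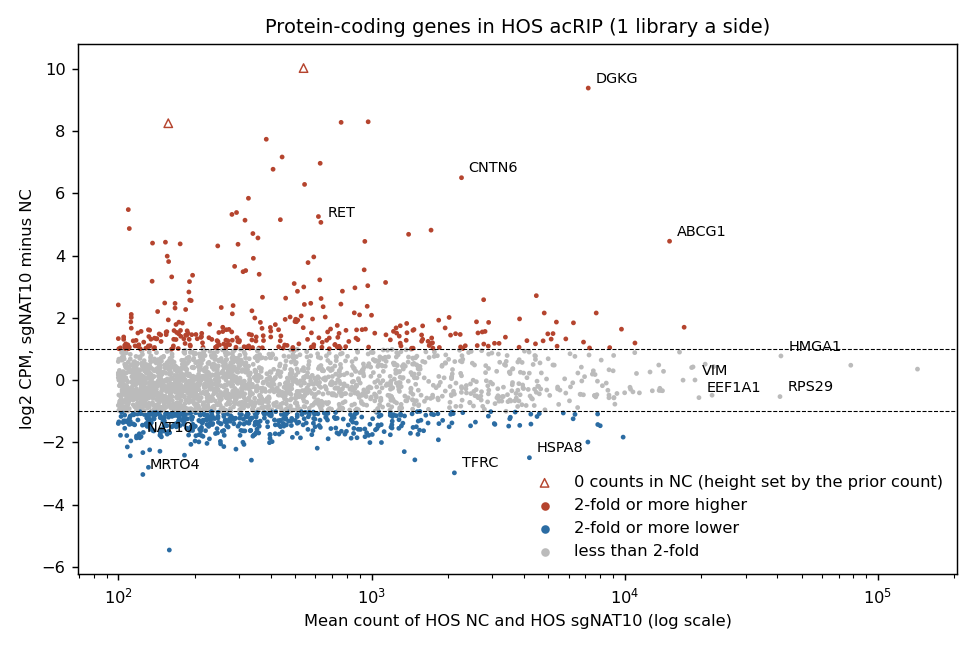
Each point is 1 of the 2765 measured protein-coding genes, with its mean HOS count on a log axis and its shift (log2 CPM, sgNAT10 minus NC) on the vertical axis; dashed lines mark 2-fold. Lower genes (473, blue) lie mostly between -1 and -3, while higher genes (322, red) reach above 6, and 2 open triangles mark CHODL and GUCY1A1, which had 0 counts in NC and whose height depends on the prior count.

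The genes with the lowest shifts were a mixed set of growth, folding and cytoskeletal genes. They come from the 12 lowest among genes with at least 20 counts in both libraries, of which 11 are described. MRTO4, a factor in assembly of the large ribosomal subunit, had 217 counts in NC and 33 in sgNAT10, the lowest shift of these at -3.03 (-3.64 to -2.54). TFRC, the transferrin receptor that brings iron into the cell, had 3658 and 592 counts, or 203 CPM and 25.7 CPM, a shift of -2.98 (-3.11 to -2.85). ANKRD1, a nuclear ankyrin repeat protein and a known target of YAP, had 223 and 40 counts and a shift of -2.80. These 3 genes were 6.96-fold to 8.16-fold lower in sgNAT10.

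AMIGO2, a membrane protein of cell adhesion, had 553 and 118 counts (-2.57). HSPA8, the constitutive cytosolic heat shock chaperone of the HSP70 family, had the most counts of the set, 6852 and 1555, or 379 CPM and 67.5 CPM (-2.49, interval -2.57 to -2.41). The counting intervals of these 2 shifts overlap.

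The other 6 genes lay between -2.43 and -2.24. SRGN, a proteoglycan core protein of secretory granules, had 181 and 42 counts (-2.43), and CORO1C, an actin-binding coronin, had 295 and 70 (-2.41). TMEM33, a membrane protein of the endoplasmic reticulum, had 200 and 50 counts (-2.33), and CRACR2B, a regulator of calcium entry, had 2139 and 555 (-2.30). EFTUD2, a GTPase of the spliceosome, had 232 and 60 counts (-2.28), and PPA1, the cytosolic pyrophosphatase, had 210 and 56 (-2.24). All 11 genes stayed below 0 under each alternative scaling, prior count and choice of peaks that could be computed for them. The scalings moved shifts by 0.58 at most and these genes lay at -2.24 or lower, so no scaling could turn a sign. For a gene with 1 peak, a choice of peaks reuses the same counts.

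In genes with several peaks, the peaks of the lowest genes moved together. All 7 peaks of TFRC were lower, with shifts from -3.29 to -2.21, and the one nearest the 3′ end had the smallest difference (173 and 47 counts). The 2 peaks of HSPA8 had -2.67 (4889 and 976 counts, inside the gene) and -2.11 (1963 and 579 counts, at its 3′ end). In 143B the HSPA8 peaks did not share a sign, with -1.14 for the inner peak and 0.55 for the peak at the 3′ end.

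The promoters of genes that were lower together were searched for short motifs, a search chosen after the shifts were seen. RefSeq sequences of GRCh38.p14 (300 bases, from 250 before to 50 after the start) were matched by symbol for 2244 of the 2765 measured genes. The CCAAT box (CCAAT, or ATTGG on the other strand), a promoter element bound by the factor NF-Y, was present in 183 of 400 lower genes (45.8%). It was present in 537 of 1585 genes under 2-fold (33.9%), in 74 of 259 higher genes (28.6%) and in 35.7% of all 27305 promoters of the table. The E-box CACGTG was present in 14.2%, 9.91% and 6.56% of the same groups and in 7.43% of all promoters. The GC box GGGCGG was present in 71.8%, 69.6% and 71.8%, against 44.6% of all promoters, and the TATA box TATAAA in 7.25%, 6.06% and 5.79%. Both strands were searched for each motif, and none of the 4 motifs contains another. Median GC content of the windows was 65.7%, 66.3% and 69.3% in lower, middle and higher genes. A match is a description of letters and not a site in use. Among the named extremes, 3 of the 8 lowest genes with an entry held CCAAT in the 250 bases before the start, as did 3 of the 11 highest. They are shown for MRTO4 (chr1:19251555-19251804, plus strand), AMIGO2 (chr12:47079952-47080201, minus strand), HSPA8 (chr11:123062137-123062386, minus strand) and, as one of the highest genes that holds it too, SYNPO2 (chr4:118850431-118850680, plus strand). Each is written 5′ to 3′ on the strand of the gene, and capitals mark CCAAT or ATTGG.
MRTO4: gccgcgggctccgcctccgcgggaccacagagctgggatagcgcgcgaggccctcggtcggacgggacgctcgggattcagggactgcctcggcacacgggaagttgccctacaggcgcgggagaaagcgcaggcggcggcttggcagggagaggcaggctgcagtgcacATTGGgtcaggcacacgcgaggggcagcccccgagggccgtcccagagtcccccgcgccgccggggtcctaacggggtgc
AMIGO2: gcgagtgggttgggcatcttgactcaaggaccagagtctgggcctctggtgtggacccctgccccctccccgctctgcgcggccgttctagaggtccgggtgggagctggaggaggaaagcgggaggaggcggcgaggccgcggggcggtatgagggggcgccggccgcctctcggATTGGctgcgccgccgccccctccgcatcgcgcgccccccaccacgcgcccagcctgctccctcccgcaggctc
HSPA8: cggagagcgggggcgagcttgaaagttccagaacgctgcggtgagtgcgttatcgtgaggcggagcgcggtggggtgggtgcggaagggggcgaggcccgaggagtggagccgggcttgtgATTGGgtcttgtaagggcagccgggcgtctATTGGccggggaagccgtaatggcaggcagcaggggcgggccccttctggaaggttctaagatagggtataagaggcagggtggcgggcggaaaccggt
SYNPO2: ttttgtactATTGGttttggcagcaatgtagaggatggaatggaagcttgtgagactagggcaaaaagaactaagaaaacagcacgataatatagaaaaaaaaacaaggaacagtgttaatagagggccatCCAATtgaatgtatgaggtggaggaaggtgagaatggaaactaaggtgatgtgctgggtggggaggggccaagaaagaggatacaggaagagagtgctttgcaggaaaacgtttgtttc

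The genes with the highest shifts differed from the lowest in build: 8 of the 12 rested on 1 narrow peak with few counts in NC. CNTN6, a neuronal adhesion protein, had 38 counts in NC and 4496 in sgNAT10, a shift of 6.51 (6.08 to 7.04). Of its 7 peaks, a single one of 174 bp held 94.4% of the sgNAT10 counts, with 2 counts in NC and 4246 in sgNAT10. SYNPO2, an actin-binding protein of muscle, had 24 and 1210 counts (5.26), of which 0 and 1146 lay in 1 peak of 178 bp. DNM3, a dynamin of membrane fission, had 92 and 3345 counts (4.82), with 7 and 3229 in 1 peak of 173 bp. Each of the other peaks of these 3 genes had at most 158 counts in either library.

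The same held for 5 more of the 12 highest. ITFG1, a membrane protein with an integrin-like repeat, had 82 and 2720 counts (4.69), of which 1 peak of 104 bp held 73 and 2705. VPS13C, a lipid transfer protein, had 22 and 690 counts (4.57), with 12 and 675 in 1 peak. NEDD9, a scaffold of focal adhesions, had 21 and 573 (4.37), with 0 and 548 in 1 peak, and ZBTB7C, a zinc finger factor, had 33 and 650 (3.92), with 0 and 573 in 1 peak. FMNL3, a formin that elongates actin filaments, had a single peak of 185 bp with 60 and 1063 counts (3.78). All of these peaks lay inside the gene, away from both ends, and whether they lie in exons was not examined for want of an exon annotation.

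The other 4 of the 12 had many peaks that were higher together. RET, a receptor tyrosine kinase, had 28 counts in NC and 1234 in sgNAT10 (5.07, interval 4.57 to 5.71), and all 19 of its peaks were at least 2-fold higher. NTRK3, the receptor of neurotrophin 3, had 64 and 1818 counts over 49 peaks (4.46). PDGFRB, a receptor of platelet-derived growth factor, had 56 and 1127 counts over 19 peaks (3.96). ABCG1, a transporter that exports cholesterol, had the most counts, 1030 in NC and 29043 in sgNAT10 (4.47, interval 4.38 to 4.56), or 57.0 CPM and 1261 CPM. A peak of 5727 bp (chr21:42290934-42296661) held 879 and 25864 of these counts, and the other measured peaks of ABCG1 were higher as well, with shifts from 3.21 to 6.56.

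**Figure D2:**
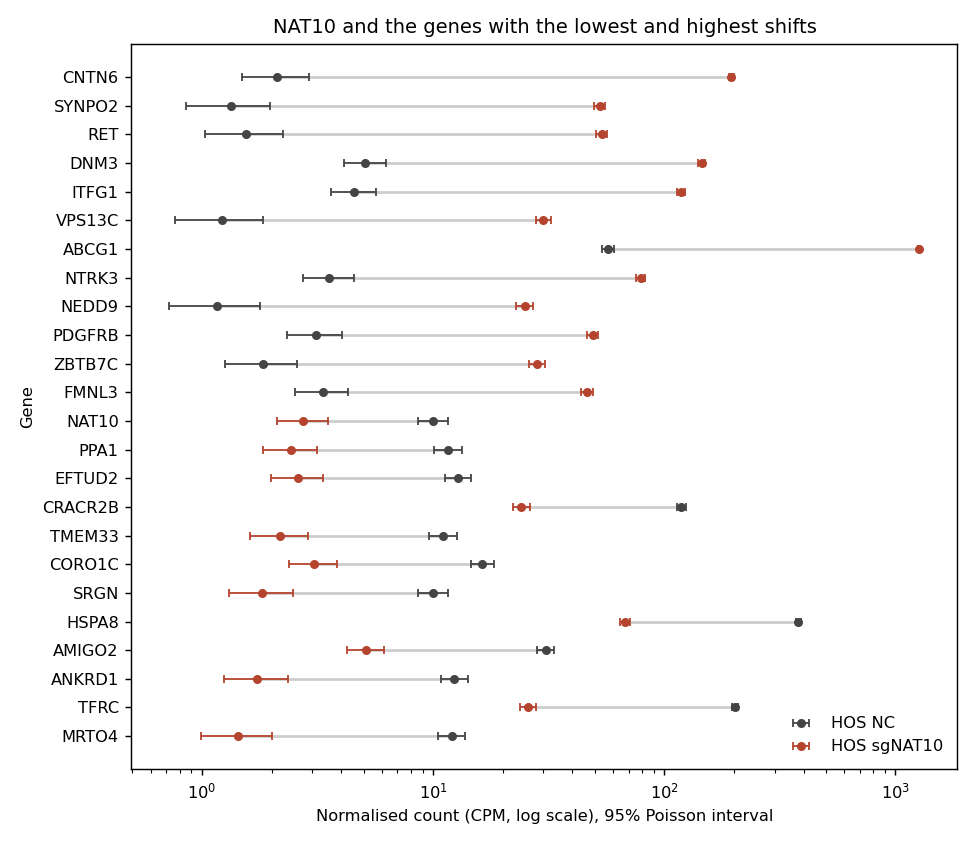
Normalised counts (CPM, log axis) of NAT10, of 11 of the 12 lowest and of the 12 highest genes in the NC library (black) and the sgNAT10 library (red), with 95% Poisson intervals for counting error. The lowest genes reach 379 CPM in NC (HSPA8), while 11 of the 12 highest, all but ABCG1, had 1.16 to 5.10 CPM in NC.

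A further 25 genes had under 20 counts in 1 library, 24 of them in NC and 1, ADCY9, in sgNAT10. The 6 of highest mean count were all near 0 in NC. DGKG, a diacylglycerol kinase, had 16 counts in NC and 14339 in sgNAT10 (9.39), with 12 and 14331 in 1 peak of 193 bp. INTS4, a subunit of the Integrator complex, had 4 and 1936 counts (8.30), GNAI1, a G protein subunit, 3 and 1514 (8.28), and TMC7, a channel-like membrane protein, 7 and 1247 (6.97), each in 1 peak. GUCY1A1, a subunit of soluble guanylate cyclase, had 0 and 1078 counts, at least 282-fold higher against a floor of 3 counts in NC. ERBB3, a receptor of neuregulins, had 10 and 1078 counts, spread over 17 peaks that were each at least 2-fold higher. ADCY9, an adenylyl cyclase, went the other way in its only peak, with 310 counts in NC and 8 in sgNAT10 (-5.46).

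The 10 genes with the most counts, of which 9 are named, moved little. LOC102724250 had 108904 and 177790 counts (0.36) and PCBD2 had 56228 and 100071 (0.48), and both spans hold known nuclear copies of mitochondrial sequence, so their counts cannot be assigned with certainty. HMGA1, a chromatin protein of the AT-hook family that is abundant in many tumours, had 25974 and 56842 counts (0.78). ADAMTS12, a secreted protease (16489 and 28417, 0.43), and CMIP, an adaptor protein (14727 and 26857, 0.52), lay slightly above 0. RPS29 (43549 and 38554, -0.53) and RPL13A (23136 and 21122, -0.48), both ribosomal proteins, and the elongation factor EEF1A1 (21068 and 18219, -0.56) lay slightly below. VIM was level at 0.01. None of the 10 differed 2-fold, and for the 3 below 0 the sign turns with library totals alone.

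Gene lists were then read by function, each with its median beside that of all measured genes (-0.23) and with its counts beside the shares of 17.1% lower and 11.6% higher. Of 57 lists, 50 had at least 5 measured members, and 13 of these had a median of -1 or lower. The lists were not tested against other genes, and many hold genes with 1 or 2 narrow peaks. For these 13 lists the median is therefore also given relative to all genes and from peaks under 300 bp alone (narrow peaks). The values from narrow peaks are not relative ones, and the median of all 2354 genes measured in narrow peaks was -0.35.

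**Figure D3:**
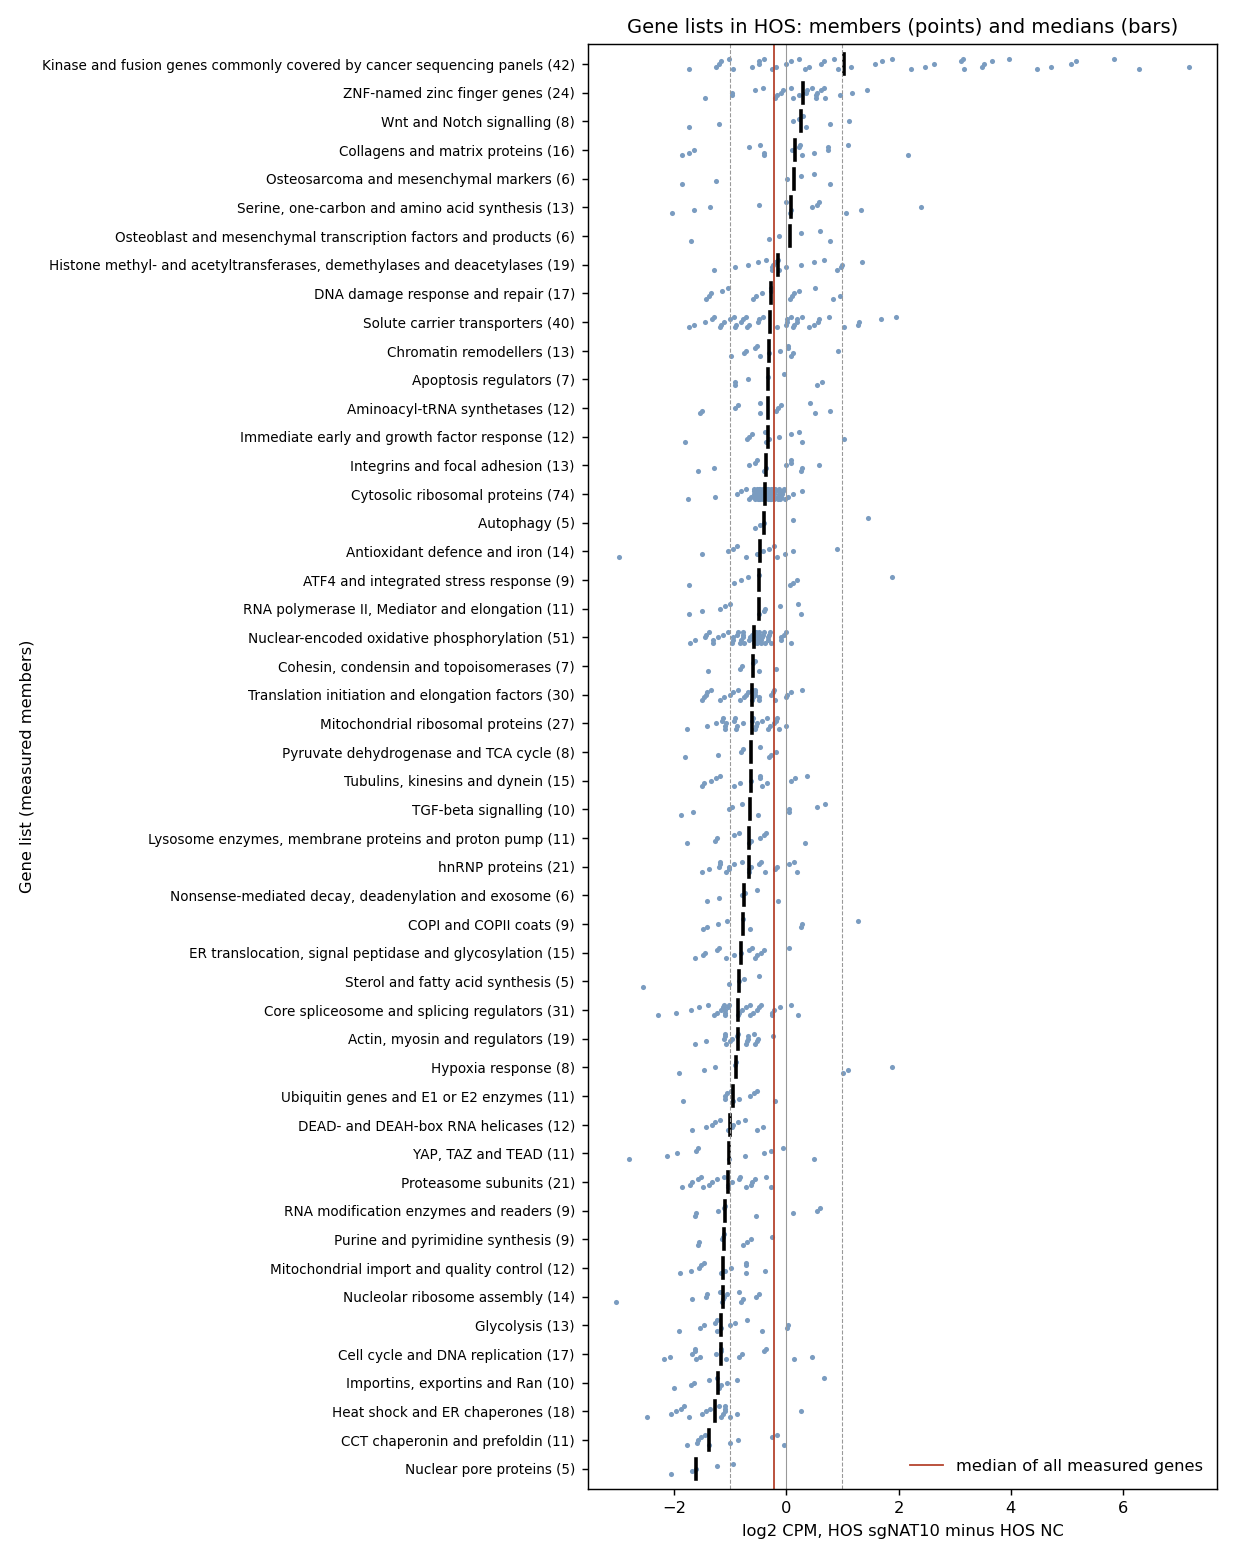
Shifts of the measured members (blue points, log2 CPM of sgNAT10 minus NC) of the 50 lists with 5 or more measured members, ordered by list median (black bars), with the number measured in brackets. The red line is the median of all 2765 measured genes (-0.23) and the dashed lines mark 2-fold; list medians run from -1.61 for nuclear pore proteins to 1.03 for kinase and fusion genes of cancer panels, many of which had under 100 counts in NC.

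Protein folding genes were lower in the largest share of the 50 lists. Of 31 heat shock and endoplasmic reticulum chaperones, 18 were measured and 16 of these were at least 2-fold lower, none higher, with a median of -1.28, which is -1.05 relative to all genes and -1.28 again in narrow peaks alone. HSP90AA1, the inducible cytosolic HSP90, had 14510 counts in NC and 5209 in sgNAT10 (-1.83, interval -1.88 to -1.78). Its constitutive partner HSP90AB1 had 10609 and 5044 (-1.42), and the lectin chaperone CANX had 5325 and 3189 (-1.09). DNAJA1, a co-chaperone of HSP70 (297 and 90, -2.06), the lectin chaperone CALR (612 and 198, -1.97) and the mitochondrial pair HSPD1 (2790 and 1261, -1.50) and HSPE1 (590 and 205, -1.87) were lower as well. HSPA8, with the CCAAT matches shown above, was the lowest member. In 143B the median of the same 18 genes was 0.28, a difference between lines that was not tested.

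The CCT chaperonin, the ring complex that folds actin and tubulin, and its helper prefoldin had 11 measured members of 14, of which 7 were lower and all 11 lay below 0 (median -1.38, or -1.15 relative to all genes and -1.52 in narrow peaks). CCT5 had 5251 and 2449 counts (-1.45), CCT7 had 2243 and 1102 (-1.38), CCT6A had 2019 and 899 (-1.52) and CCT3 had 1458 and 615 (-1.60). TCP1, another ring subunit, had the lowest shift (-1.76). Of the proteasome, which degrades tagged proteins, 21 of 39 subunits were measured, 12 were lower and all 21 lay below 0 (median -1.04, or -0.82 relative to all genes and -1.14 in narrow peaks). PSMD2 had 1223 and 476 counts (-1.71), PSMD13 had 869 and 387 (-1.52), PSMA5 had 766 and 416 (-1.23), and PSMA7, the most abundant, 2750 and 2140 (-0.71). The proteasome median in 143B was 0.95. Ubiquitin genes and enzymes that load ubiquitin were 4 lower of 11 measured (median -0.95), led by UBE2N (718 and 256, -1.84), while UBB had 4417 and 3138 (-0.84).

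Traffic between nucleus and cytoplasm was lower too. Of 26 importins, exportins and Ran proteins 10 were measured and 8 were lower (median -1.22, or -0.99 relative to all genes and -1.22 in narrow peaks). RAN, the GTPase that sets the direction of transport, had 5746 and 3265 counts (-1.17), and its partners RANBP1 (2784 and 1371, -1.37) and RANGAP1 (1312 and 709, -1.24) were lower. The carriers CSE1L (1496 and 475 counts), IPO5 (1048 and 413, -1.69), XPO1 (1080 and 441, -1.64) and KPNB1 (1098 and 610, -1.20) were lower as well, and IPO9 alone lay above 0 (673 and 1360, 0.66). Only 5 of 26 nuclear pore proteins were measured, 4 of them lower (median -1.61, or -1.39 relative to all genes and -1.61 in narrow peaks): NUP155 (388 and 119, -2.05), NUP153 (502 and 199, -1.68), NUP98 (369 and 153, -1.61) and NUP93 (169 and 91, -1.24). RANBP2, the pore protein that binds Ran, had 606 and 400 counts (-0.95).

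Nucleolar proteins, the company of NAT10 in the cell, were lower in part. Of 38 nucleolar and ribosome assembly genes 14 were measured, 9 were lower and all 14 lay below 0 (median -1.13, or -0.90 relative to all genes and -1.14 in narrow peaks). The abundant nucleolar proteins NPM1 (10464 and 7827 counts, -0.77) and FBL (1064 and 932, -0.54), the methyltransferase of box C/D particles, did not reach 2-fold, and NCL (7088 and 4355, -1.05) just did. DDX21, a nucleolar helicase (1371 and 542, -1.69), RRP9 (174 and 82, -1.43), NOLC1 (228 and 109, -1.41), BOP1 (291 and 164, -1.17) and DKC1, the pseudouridine synthase (283 and 166, -1.12), were lower, and MRTO4 was lowest. Of 35 RNA modification enzymes and readers 9 were measured and 5 were lower (median -1.08, or -0.86 relative to all genes and -0.83 in narrow peaks). They were EMG1, which methylates the small-subunit rRNA (470 and 194, -1.62), YTHDF1, a reader of methylated adenosine (194 and 80, -1.62), ALKBH5, a demethylase of the same mark (307 and 167, -1.22), TRMT1, a tRNA methyltransferase (192 and 115, -1.08), and DKC1. CBLL1 (862 and 1602, 0.54) and ADARB1 (572 and 1104, 0.60) lay above 0.

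Splicing and RNA helicase genes lay lower as well. Of 31 measured splicing genes 15 were lower and none higher (median -0.85), among them SRSF2 (382 and 124, -1.97), SRSF3 (731 and 285, -1.71) and SNRPD2 (1626 and 977, -1.09). Of the other abundant members, SF1, which binds the branch point, had 3502 and 4720 counts (0.08), SF3A2 had 2847 and 4203 (0.21), and SF3B2 had 1199 and 980 (-0.64). Of 12 DEAD- and DEAH-box helicases 6 were lower, including DDX3X (730 and 344, -1.43) and DHX9 (287 and 145, -1.33), while DDX17 had 1069 and 706 (-0.95). The median of these 12 helicases was just below -1, which is -0.78 relative to all genes. In narrow peaks alone the median, not set relative to other genes, was the same value just below -1. Of 21 hnRNP proteins 8 were lower (median -0.67), led by ELAVL1 (267 and 119, -1.51) and HNRNPK (1786 and 874, -1.38). The most abundant, HNRNPA1 (6243 and 9032, 0.18), PCBP2 (6898 and 6437, -0.45), HNRNPA3 (5004 and 6581, 0.04) and HNRNPUL1 (4288 and 4779, -0.19), differed less than 2-fold. RNA decay had 6 measured genes of 32, 2 of them lower (SMG5, 267 and 127, -1.42, and XRN2, 167 and 92, -1.20; median -0.76).

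Ribosomal protein genes lay close to the median of all genes. Of 89 cytosolic ribosomal proteins 74 were measured and 71 lay below 0, but 2 were at least 2-fold lower and none higher, with a median of -0.37, or -0.15 relative to all genes, and with library totals alone the median lies above 0. RPS21 had 14036 and 14162 counts (-0.34) and RPS3 had 13575 and 13779 (-0.33). The 2 lower members were RPS26 (1722 and 651, -1.75) and RPL7L1, a ribosomal protein paralog (144 and 76, -1.26). Ribosomal protein genes have many near-identical pseudogene copies, and how reads that map to several places were counted was not given. Of 30 translation factors 7 were lower (median -0.60), including the initiation factors EIF4G2 (5760 and 2764, -1.41), EIF3B (1102 and 518, -1.44) and EIF4EBP2, a translational repressor (375 and 168, -1.50), and EIF5A (4774 and 2190, -1.48). EEF2 (14933 and 19065, 0.00), EEF1A2 (11146 and 17320, 0.28) and EEF1G (9304 and 8026, -0.56) did not differ 2-fold. Mitochondrial ribosomal proteins were 8 lower of 27 (median -0.61), led by MRPL18 (382 and 142, -1.77), and the 4 most abundant, MRPL21, MRPS34, MRPS21 and MRPS24, lay between -0.59 and -0.22.

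Aminoacyl-tRNA synthetases divided. Of 12 measured, 2 were lower and 0 higher, close to the share of 17.1% lower over all measured genes. These were KARS1 (602 and 272, -1.49) and RARS1 (148 and 64, -1.55), for lysine and arginine. Those for serine (SARS1, 415 and 912, 0.78) and glycine (GARS1, 733 and 1252, 0.42) lay above 0, YARS1 for tyrosine was near 0 (628 and 754, -0.09), and TARS1 for threonine lay below (1301 and 911, -0.86).

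Cell cycle and DNA replication genes were lower in 11 of 17 measured members of 46, none higher (median -1.16, or -0.94 relative to all genes and -1.16 in narrow peaks). AURKA, a mitotic kinase (954 and 267, -2.18), PCNA, the replication clamp (481 and 146, -2.06), FEN1, its flap nuclease partner (229 and 90, -1.69), and the proliferation marker MKI67 (313 and 129, -1.62) were the lowest of them with UBE2C (271 and 112, -1.62) and E2F1 (196 and 80, -1.63). The helicase subunits MCM3 (1004 and 441, -1.54), MCM2 (208 and 118, -1.16) and MCM7 (836 and 509, -1.07) were lower, and MCM5 lay above 0 (521 and 912, 0.46). CCND1, cyclin D1, had 3680 and 2108 counts (-1.15) and POLE, a replicative polymerase, had 895 and 1253 (0.13). The same 17 genes had a median of 0.41 in 143B. Of 9 measured nucleotide synthesis genes 5 were lower (median -1.12, or -0.89 relative to all genes and -1.21 in narrow peaks), including PAICS of purine synthesis (964 and 418, -1.55) and RRM1 of ribonucleotide reductase (215 and 125, -1.13). DNA repair was mixed, with 5 lower of 17 (median -0.28): the Ku proteins XRCC6 (1634 and 773, -1.43) and XRCC5 (1590 and 919, -1.14), their kinase PRKDC (741 and 364, -1.37), MSH6 (467 and 235, -1.34) and RPA1 (250 and 154, -1.05). BRCA1 (570 and 782, 0.10) and MDC1 (1041 and 1904, 0.52) lay above 0.

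Of 13 measured glycolytic enzymes 7 were lower and none higher (median -1.16, or -0.94 relative to all genes and -0.97 in narrow peaks). ENO1, enolase, had 10947 counts in NC and 5063 in sgNAT10 (-1.46), PKM, pyruvate kinase, 8126 and 4387 (-1.24), and LDHA, lactate dehydrogenase A, 2745 and 928 (-1.91). PGAM1 (1674 and 736, -1.54), PGK1 (1680 and 888, -1.27), TPI1 (934 and 506, -1.23) and PFKP (1364 and 777, -1.16) were lower too, whereas GAPDH had 2984 and 2808 counts (-0.44) and LDHB 4148 and 2649, just short of 2-fold. The hypoxia list, which shares ENO1, LDHA and PGK1 with glycolysis, therefore divided: those 3 were lower and 3 others were higher, VEGFA, the vascular growth factor (381 and 981, 1.01), DDIT4, an inhibitor of mTOR (177 and 833, 1.88), and NDRG1 (57 and 156, 1.09). NDRG1 passed the count limit only through sgNAT10.

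Mitochondrial genes encoded in the nucleus lay lower, unevenly. Of 12 measured import and quality control genes 7 were lower and all 12 lay below 0 (median -1.13, or -0.90 relative to all genes and -1.09 in narrow peaks), among them TOMM40, the pore of the outer membrane (1797 and 827, -1.47), TOMM6 (1466 and 634, -1.56), TOMM5 (515 and 202, -1.70) and PMPCA, a processing peptidase (341 and 117, -1.89), while TOMM7 had 756 and 737 (-0.39). Of 51 oxidative phosphorylation genes 10 were lower, close to the share of 17.1% over all measured genes. In this list 50 lay below 0 (median -0.58, or -0.35 relative to all genes), and with library totals alone the median lies at about 0. The 10 lower ones included 7 genes of the ATP synthase, such as ATP5F1A (2022 and 1037, -1.31), ATP5F1C (830 and 344, -1.62) and ATP5F1E (2833 and 1754, -1.04). COX7C of complex IV had 2536 and 2400 counts (-0.43) and ATP5MF had 1968 and 1685 (-0.58). Of 8 genes of pyruvate oxidation and the TCA cycle, ACLY, which makes cytosolic acetyl-CoA from citrate (498 and 182, -1.80), and FH, fumarase (390 and 213, -1.22), were lower (median -0.62), CS, citrate synthase, had 363 and 265 (-0.80), and DLD had 569 and 521 (-0.48).

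Lipid and iron genes differed in single members more than as lists. Of 29 sterol and fatty acid genes 5 were measured (median -0.84): ELOVL1 had 575 and 360 counts (-1.02), FASN, the fatty acid synthase, 2516 and 1791 (-0.84), and SCD, the desaturase, 9047 and 8288 (-0.48). Of 14 antioxidant and iron genes TFRC was lowest, PRDX1, a peroxiredoxin, had 1649 and 738 counts (-1.51) and TXN, thioredoxin, 890 and 552 (-1.04). FTL, the light chain of the iron store ferritin, did not differ 2-fold (2221 and 2516, -0.17), nor did GSTP1 (1264 and 1128, -0.52), and the list median was -0.47.

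Genes of serine, one-carbon and amino acid synthesis went both ways. Of 13 measured members of 22, 3 were higher and 3 lower (median 0.08). The higher ones were GPT2, a mitochondrial alanine transaminase (2788 and 8918, 1.33), ALDH1L2, a mitochondrial folate enzyme (73 and 495, 2.40), and ASNS, asparagine synthetase (175 and 468, 1.06). PHGDH (2212 and 4207, 0.58) and PSAT1 (3221 and 6036, 0.55), the first steps of serine synthesis, lay above 0 without reaching 2-fold, and CBS had 398 and 532 counts (0.07). Lower were ALDH18A1, which starts proline synthesis (342 and 106, -2.03), MTHFD1, a cytosolic folate enzyme (366 and 149, -1.64), and GOT2, the mitochondrial aspartate transaminase (464 and 231, -1.35). ASNS, PHGDH and PSAT1 are known targets of ATF4, the factor of the integrated stress response. Of 9 measured genes in a further list of ATF4 and stress genes DDIT4 was higher, the amino acid transporter SLC38A2 was lower (2207 and 843, -1.74), and ATF4 itself had 1801 and 1436 counts (-0.68), SLC7A1 6057 and 8847 (0.20) and SLC7A5 587 and 814 (0.12), with a list median of -0.48.

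The cytoskeleton was lower in its core proteins. Of 19 measured actin and myosin genes 7 were lower and all 19 lay below 0 (median -0.86). ACTG1 (7973 and 4753, -1.10) and ACTB (5726 and 3472, -1.07), the cytoplasmic actins, TAGLN2 (2272 and 940, -1.62), TPM1, tropomyosin (567 and 267, -1.43), and MYH9, nonmuscle myosin (667 and 396, -1.10), were lower, PFN1 had 4461 and 3998 counts (-0.51) and MSN 3862 and 3056 (-0.69). Actin genes have many pseudogene copies that could share reads. Of 15 tubulin and motor genes 5 were lower (median -0.63), including the tubulins TUBB (3368 and 1555, -1.47), TUBA1B (3427 and 1719, -1.35) and TUBA1C (2071 and 936, -1.50), and the motor subunit DYNC1H1 had 2012 and 1657 (-0.63).

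YAP and TEAD, the effectors of the Hippo pathway that drive adhesion and growth genes, had 6 lower of 11 measured members of 22 (median -1.02, or -0.79 relative to all genes and -1.41 in narrow peaks). TEAD1, the DNA-binding partner (169 and 55, -1.95), the target genes CCN2 (405 and 117, -2.13), CCN1 (1268 and 540, -1.58) and ANKRD1, VGLL3, a cofactor (431 and 179, -1.61), and NF2, an upstream inhibitor (287 and 180, -1.02), were lower. YAP1 had 720 and 552 counts (-0.73), AXL, a receptor kinase, 1450 and 1410 (-0.39), and CRIM1 3871 and 4100 (-0.27). The lower members thus include an inhibitor as well as targets. The median of the list was -0.96 in 143B as labelled. Of the members lower in HOS, CCN1 (-1.72) and VGLL3 (-2.34) were lower there too. CCN2 (1.21), TEAD1 (1.19), ANKRD1 (0.80) and NF2 (0.15) lay above 0 there.

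Matrix, adhesion and signalling genes went both ways. The shares called in the matrix list were near those of all measured genes, 17.1% lower and 11.6% higher. The same held for the lower share of the adhesion list. Of 16 measured matrix genes 2 were higher, LAMA5, a laminin chain (2304 and 13131, 2.16), and COL18A1, a basement membrane collagen (1553 and 4231, 1.09). Lower were SPARC, a matrix protein of bone (1231 and 431, -1.86), TGFBI (1073 and 412, -1.73) and PLOD2, a lysyl hydroxylase (225 and 91, -1.65), and the list median was 0.16. COL5A1 (954 and 1723, 0.50) and COL4A2 (895 and 867, -0.40) did not differ 2-fold. Of 13 adhesion genes the hyaluronan receptor CD44 (495 and 211, -1.58) and VCL, vinculin (822 and 430, -1.28), were lower (median -0.36). TGF-beta genes had 3 lower of 10 (median -0.65), the target ID3 (1002 and 346, -1.88), the latency protein LTBP1 (633 and 255, -1.66) and the mediator SMAD3 (649 and 409, -1.02), while the ligand TGFB1 had 801 and 721 counts (-0.50). Of 8 Wnt and Notch genes CTNNB1, beta-catenin (1136 and 435, -1.73), and NOTCH2 (189 and 104, -1.21) were lower and NOTCH1 was higher (898 and 2480, 1.11). Immediate early genes had KLF6 lower (317 and 115, -1.80) and SPRY4 higher (968 and 2527, 1.03) of 12, with JUN at -0.35 (2110 and 2105). Of 6 transcription factors and products of the osteoblast and mesenchyme, NR2F2 was lower (354 and 139, -1.69), and SOX9 (2316 and 4493, 0.60) and RUNX2, the osteoblast factor (133 and 293, 0.78), lay above 0. The adhesion molecule CDH2 was lower (290 and 154, -1.26).

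Secretory and lysosomal genes and transporters lay lower or divided. Of 15 endoplasmic reticulum translocation and glycosylation genes 6 were lower (median -0.81), including SEC61A1, the translocation channel (440 and 181, -1.63). Of 9 coat genes of the early secretory pathway 4 were lower, led by KDELR2 (495 and 226, -1.48), and SEC24D was higher (120 and 371, 1.27; median -0.76). Of 11 lysosomal genes 3 were lower (median -0.67), the proton pump subunit ATP6V0E1 (441 and 164, -1.77), LAMP2 (157 and 82, -1.28) and the cholesterol transporter NPC1 (372 and 200, -1.24). Of 40 solute carriers 9 were lower and 5 higher (median -0.29), not far from the shares of 17.1% and 11.6% over all measured genes. The glutamine transporter SLC1A5 (1596 and 647, -1.65) and the mitochondrial phosphate carrier SLC25A3 (2511 and 1309, -1.29) were lower, and SLC4A5 (168 and 836, 1.96) and SLC10A7 (491 and 2010, 1.68) were higher. Autophagy had ULK1, its initiating kinase, higher (702 and 2452, 1.45) among 5. Of 7 apoptosis regulators none differed 2-fold, with MCL1 at -0.91 (1262 and 857) and BCL2 at -0.04 (537 and 667).

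Genes of chromatin and transcription lay near the median of all genes. Of 13 chromatin remodellers none differed 2-fold (median -0.31), with ARID1B highest of the abundant ones (1448 and 3506, 0.92) and SMARCA4 at -0.11 (691 and 817). Of 19 histone-modifying enzymes KDM6B, a demethylase, was higher (810 and 2647, 1.36) and KAT7, an acetyltransferase, was lower (228 and 118, -1.29), with a median of -0.15 and DOT1L at 0.91 (1044 and 2500). RNA polymerase II and its factors had 4 lower of 11 (median -0.48), the subunits POLR2B (226 and 86, -1.73) and POLR2H (177 and 99, -1.18) and the FACT subunits SSRP1 (536 and 242, -1.49) and SUPT16H (214 and 128, -1.09), while the largest subunit POLR2A had 8971 and 13292 counts (0.22). The 7 measured genes of cohesin, condensin and topoisomerases included NCAPD2 lower (342 and 165, -1.40; median -0.59). Of 24 ZNF-named zinc finger genes 2 were higher, ZNF469 (885 and 2556, 1.18) and ZNF605 (83 and 290, 1.44), and ZNF207 was lower (240 and 111, -1.46), with a median of 0.29, or 0.08 in narrow peaks alone. Interferon and antigen presentation genes had 4 measured members, of which B2M was lower (823 and 500, -1.07) and IFITM3 was not (1060 and 1246, -0.12), and of 24 p53 targets GADD45A alone was measured (376 and 296, -0.69).

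Receptor kinases and other genes that cancer sequencing panels commonly cover had the list median that was highest under the count limit used, but most of its higher members had under 100 counts in NC. Of 61 such genes 50 had a peak and 42 were measured, of which 21 were higher and 5 lower (median 1.03). Of the 21, 14 had under 100 counts in NC and entered through sgNAT10, so neither the count nor the median is a measure of the list. Of the 25 with 100 or more counts in both libraries, 7 were higher and 3 lower, with a median of 0.32, beside -0.28 for all 2382 such genes. ALK, a receptor kinase, had 185 and 2088 counts (3.14), FGFR2 had 142 and 1009 (2.47), ERBB4 142 and 1122 (2.62), FGFR3 174 and 823 (1.89) and TERT, the catalytic subunit of telomerase, 166 and 634 (1.58). ROS1 (4 and 883), KDR (18 and 855), TMPRSS2 (8 and 645) and PAX8 (19 and 661) were nearly empty in NC. The abundant members moved little or were lower: GNAS (13335 and 14202, -0.26), EGFR (1758 and 2382, 0.09), CTNNB1, CCND1 and MAP2K1 (599 and 320, -1.25).

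The 21 higher genes held 353 peaks with a median width of 177 bp, of which 327 were at least 2-fold higher and 2 lower. The genes were picked for being higher, so a majority of higher peaks follows from that choice and only their spread over many peaks is described. The median peak had 2 counts in NC and 43 in sgNAT10, and the highest had 493. NTRK3 had 48 of 49 peaks higher, 23 of them with no count in NC, and ROS1 had 21 of 21 higher, 19 with no count in NC. This differs from CNTN6 or DGKG, where a single peak held nearly all counts. In 143B the median of the list was -0.62. What these genes share beside their choice for the list was not tested.

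Peak width went with the direction of the shift. Of the 4231 measured peaks in protein-coding genes, the 1015 under 150 bp had a median shift of -0.50 and the 1951 from 150 bp to under 300 bp had -0.39. The 498 from 300 bp to under 500 bp had 0.07, the 401 from 500 bp to under 1000 bp had 0.76 and the 366 of 1000 bp or more had 0.93. Over all 6186 measured peaks 844 were higher (13.6%) and 903 lower (14.6%), whereas of the 767 gene peaks of 500 bp or more 41.7% were higher and 0.782% lower. In 143B the wide peaks lay at the other side, with a median of -1.92. Within genes that had both kinds, the median of wide peaks exceeded that of narrow peaks (under 300 bp) by a median of 0.38, in 150 of 186 genes. Genes with more peaks lay higher too: the median was -0.53 for the 976 genes with 1 peak and 0.79 for the 138 genes with 11 or more, of which 59 were higher and none lower. When genes were summed over narrow peaks alone, 175 of 2354 were higher (7.43%) and 466 lower (19.8%). The widths are those of the deposited intervals, and the caller that set them was not given.

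**Figure D4:**
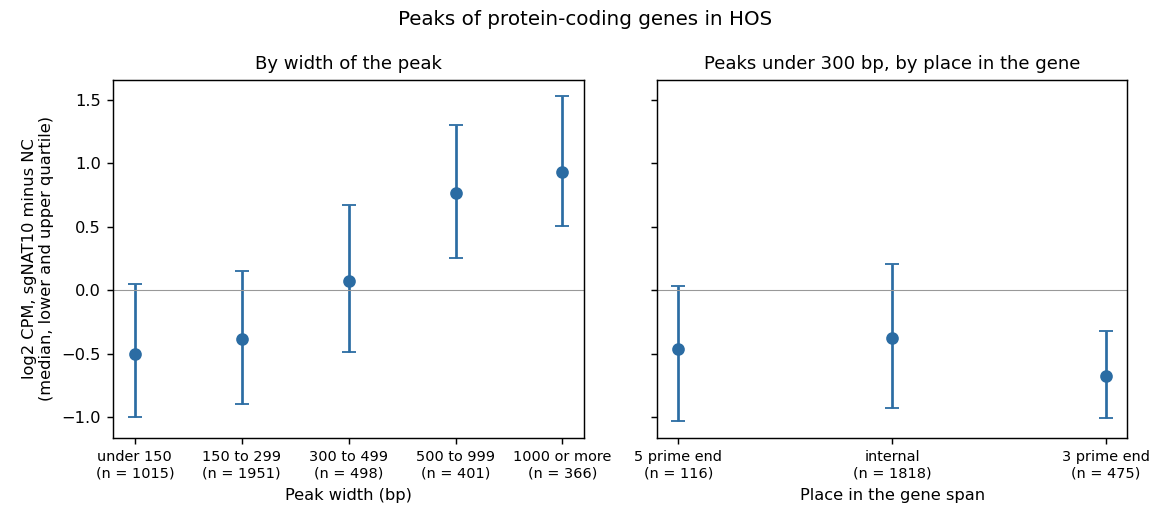
Median shift (points) with lower and upper quartile (bars) of measured HOS peaks in protein-coding genes, by peak width in bp (left) and, for peaks under 300 bp, by place in the gene span (right). Medians run from -0.50 under 150 bp to 0.93 at 1000 bp or more, and from -0.68 at the 3′ end to -0.38 inside the gene; 6 narrow peaks near both ends of a short gene and 551 in genes of unknown strand are not drawn.

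Place in the gene was read from narrow peaks. Among those with a known strand, the 475 within 500 bp of the 3′ end had a median of -0.68, the 116 near the 5′ end -0.47 and the 1818 internal ones -0.38. A further 6 lay near both ends (-1.76, all lower), and 551 had no known strand (-0.29). Within genes that had both, however, narrow peaks at the 3′ end lay above internal ones by a median of 0.13, in 94 of 138 genes, so the lower median at the 3′ end was not seen between peaks of one gene. Peaks at the 5′ end differed from internal ones by -0.03, above them in 19 of 49 genes.

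Some genes held peaks that moved apart. GNAS, which encodes a stimulatory G protein subunit and has several promoters, had the widest range: a peak at the 5′ end of its span had 70 and 277 counts (1.62) and a peak of 2054 bp about 13.5 kb from its start had 26 and 475 (3.80), while 6 peaks near its 3′ end had -0.47 to 0.16. RRM2, a subunit of ribonucleotide reductase, had narrow peaks of 180 and 68 counts (-1.74) and 231 and 46 counts (-2.65), against 247 and 406 (0.36) in a peak of 1391 bp farther along its span. SLC19A1, the folate carrier, had 3 peaks toward its 3′ end at -0.61 to -0.50 and a peak of 803 bp about 9.43 kb from its start with 34 and 224 counts (2.34). PPP2R2C, a regulatory subunit of protein phosphatase 2A, had wide peaks of 661 and 3395 counts (2.01) and 19 and 282 counts (3.49), and a narrow one of 113 and 99 (-0.54). AGAP1, a GTPase-activating protein, had a narrow peak of 27 and 290 counts (3.04) and a wide one of 312 and 486 (0.29). In ABCG1, the sixth gene of the widest range, the highest measured shift was that of a peak of 424 bp (6.56), above the peak of 5727 bp (4.53). In 4 of the 6 genes the measured peak with the highest shift was 500 bp or wider.

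**Figure D5:**
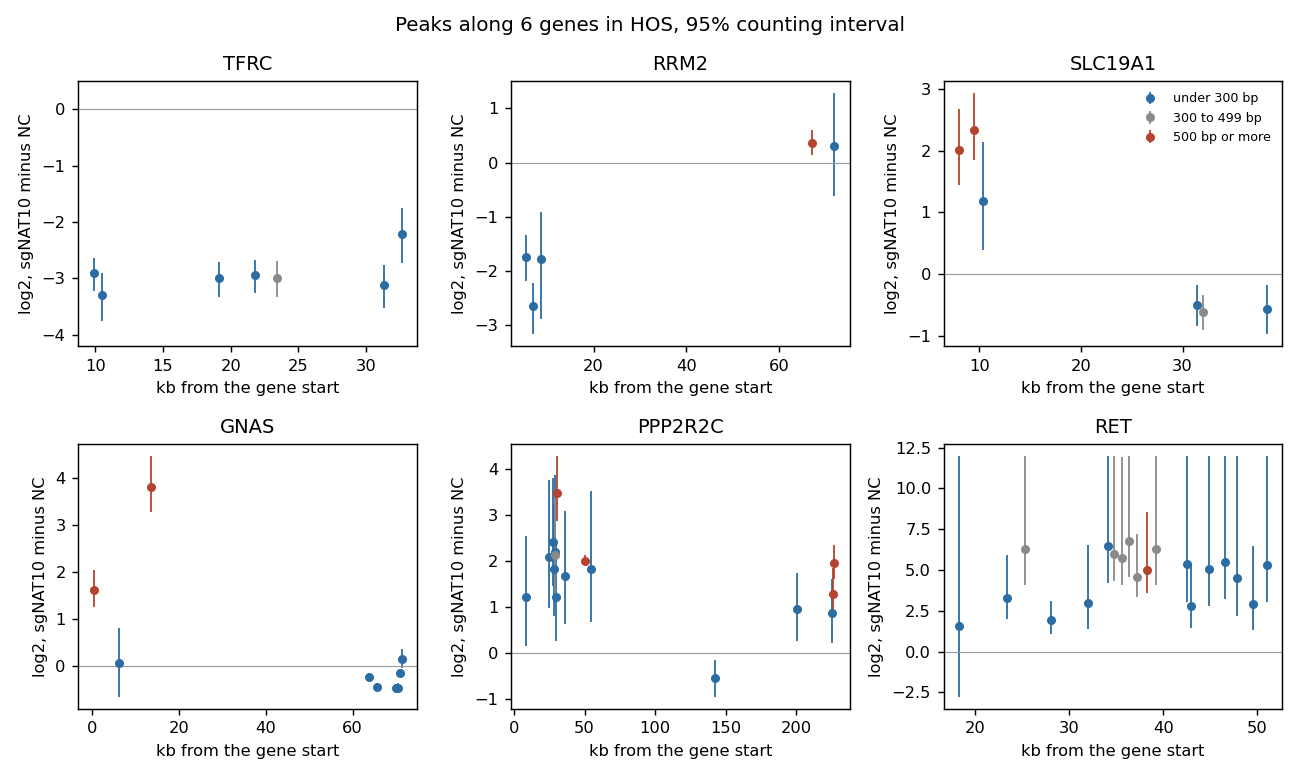
Shift (log2, sgNAT10 minus NC) of every peak of 6 genes against its distance in kb from the gene start, coloured by peak width, with 95% counting intervals that are drawn to 12 at most where NC had no or few counts. All 7 peaks of TFRC lie below -2, all 19 of RET lie above 1, and in RRM2, SLC19A1 and GNAS the peaks of 500 bp or more lie highest.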

How the data were processed

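RNA recovered with an anti-ac4C antibody was measured in HOS cells labelled NC and sgNAT10, with 1 library each and no replicates. The deposited values are counts, raw reads per peak interval, as the authors made them. The submitters' processing notes name FastQC, STAR, SAMtools, deepTools and the build GRCh38, with no version and no role for any of them. Not given in the sources used here were the caller of the peaks, the tool that counted reads, strandedness, the treatment of reads with several matches and the base of interval starts. The tables held 7 blank columns and 0 columns of other samples. Because interval starts may count from 0 or 1, positions are printed as deposited.

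Peaks were matched to a RefSeq gene table of 59792 genes with spans only, and strand came from the RefSeq promoter table, which covered 2244 measured genes. Library sizes were scaled with TMM factors (edgeR 4.0.16, R 4.3.3) from peaks that passed filterByExpr (minimum count of 10, minimum total of 15) over the 4 acRIP libraries, 0.728 for HOS NC and 1.09 for HOS sgNAT10. Shifts used a prior count of 1, and called genes differed at least 2-fold. Intervals at 95% are exact conditional binomial bounds for shifts and exact Poisson bounds for CPM. Bounds and shifts were checked on simulated counts that hold counting error only. That check covers the calculation and not the wider error of real reads. Peaks within 500 bp of an end of the span were called 5′ or 3′. No test between conditions was run. Size factors of the DESeq2 kind (DESeq2 1.42.0) were an alternative scaling.

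Named were NAT10, the 12 highest and 12 lowest shifts among genes with 20 or more counts in both libraries, the 10 of highest mean count, the 6 of highest mean count with under 20 counts in 1 library, the 4 most abundant members of each list with its called members where 5 or fewer, and the 6 genes with 3 or more measured peaks and the widest range between them. Other list members were named after their values were seen. The members and the lists were chosen with earlier results of these data known. Input libraries were not analysed here, and some named genes are not reported here.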

Additional observations from a re-analysis of the deposited data

Results flagged for a closer look

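Of the 46 genes named by rule from this comparison, 10 differed at least 2-fold in HOS and at least 2-fold the other way in 143B, between the libraries labelled NC and sgNAT10. With 1 library for each line and genotype, the difference between the lines was not tested. The 143B library labelled sgNAT10 did not have lower counts at NAT10, as given above, so these pairs compare libraries by their labels.

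Among the genes lower in HOS, SRGN had a shift of -2.43 in HOS and 1.17 in 143B, and PPA1 had -2.24 and 1.42. Among the genes higher in HOS with many peaks, RET had 5.07 and -1.16, ABCG1 had 4.47 and -1.44, and PPP2R2C had 1.86 and -2.14. Among those that rest on 1 peak, ITFG1 had 4.69 and -1.96, DGKG had 9.39 and -2.46, INTS4 had 8.30 and -2.75, GNAI1 had 8.28 and -1.16, and TMC7 had 6.97 and -1.16. GNAI1 and TMC7 each had only 9 and 5 counts in the 143B libraries, which is too few to give a direction there. Of the 322 genes higher in HOS, 185 were at least 2-fold lower and 26 at least 2-fold higher in 143B, with a median 143B shift of -1.25. Over all 2765 measured genes 828 were lower and 253 higher in 143B, with a median of -0.30. Of the 473 genes lower in HOS, 74 were lower and 36 higher in 143B, with a median of 0.05.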

How the results depend on the processing

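No paired analysis was possible because HOS had 1 library for each genotype, and for the same reason no replicate could be left out. With library totals alone 688 genes were higher and 112 lower, 1845 peaks were higher and 203 lower, 1 gene list instead of 13 had a median of -1 or lower, and NAT10 had a shift of -1.27. With TMM over the HOS libraries alone 750 genes and 1371 peaks were lower and 21 lists had such a median. With a minimum mean count of 50 and of 200, 1550 and 432 peaks were higher, and with no minimum 992 genes were higher and 1025 lower, and 8944 peaks higher and 2949 lower, as different numbers of genes and peaks entered. From peaks under 300 bp alone 175 genes were higher, and from peaks near gene ends alone 24 were higher and 205 lower among 813 genes. There the kinase and fusion list had a median of -0.35 over 6 members, the opposite sign to 1.03, and the cause was not tested. The 31 called named genes kept their sign in 246 of 246 settings in which they could be computed, and the 14 called lists in 173 of 174. A called value is at least 1 in size and the scalings moved shifts by 0.58 at most, so the scalings could not turn a sign. Genes with 1 peak have the same counts under several choices of peaks. The kept signs are therefore no support for the calls. List medians relative to all genes changed in size between settings. They ran from -1.45 to -0.34 for the CCT and prefoldin list and from -1.13 to -0.31 for the proteasome. For mitochondrial import they ran from -1.27 to -0.49, and for chaperones from -1.19 to -0.93. Restricting to genes with 20 counts in both libraries, and setting lists relative to the median, were chosen after seeing the data. Counts under 20 in a library limit the shifts of 25 genes.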

Other observations

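The replication-dependent histone genes, which are expressed when DNA is copied, were in no list and were lower as far as they were measured, a group named after its values were seen. All 7 measured genes were at least 2-fold lower in sgNAT10, each on 1 peak, with a median shift of -1.74. H3C14, a gene of histone H3, had 10828 counts in NC and 3483 in sgNAT10 (-1.99), and H2AC11 had 1661 and 528. The genes of histone H4 H4C8 (2049 and 801, -1.71), H4C2 (1384 and 501, -1.82) and H4C3 (1459 and 555, -1.74) were alike, as were H1-2, a linker histone (1242 and 530, -1.58), and H2BC12 (188 and 80, -1.57). Genes of the same histone type resemble one another closely, so reads may be divided among them. The values of H4C8, H4C2 and H4C3 may therefore not be separate measurements.

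Of all 2765 measured genes 1980 were in none of the lists. The same held for 242 of the 473 lower genes and for 281 of the 322 higher genes. Most of the higher genes are therefore not described by function above. The 20 of highest mean count among them, with 100 or more counts in both libraries, had a median of 11 peaks. They included HPCAL1, a neuronal calcium sensor (6670 and 27668 counts, 1.70), RTEL1, a DNA helicase of telomeres (5599 and 16352, 1.19), BCL11A, a transcription factor of blood and brain (4800 and 12650, 1.05), AFF3, a transcription factor of lymphoid tissue (2250 and 10299, 1.84), PRKCA, a protein kinase C (2907 and 7907, 1.09), and NTSR1, a neurotensin receptor (1436 and 8185, 2.16). All 20 had a negative shift in 143B as labelled, from -3.29 to -1.14. The 20 lower genes of highest mean count outside the lists had a median of 2.5 peaks and 143B shifts from -1.47 to 0.52. They included ANXA2, a membrane-binding annexin (9767 and 5868, -1.09), PPIA, cyclophilin A (4565 and 2466, -1.24), VCP, the segregase that feeds the proteasome (2486 and 1205, -1.40), MIF, a cytokine (2279 and 1377, -1.08), RHOA, a GTPase of the actin cytoskeleton (2068 and 1209, -1.13), and DNMT1, the maintenance DNA methyltransferase (1899 and 1207 counts). These genes were picked by their counts after the shifts were seen.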
